A study of Mus musculus with 6 samples.

Results

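The 10 genes described here are macrophage identity and scavenger receptor genes, Csf1r, Spi1, Cd68, Lyz2, Cd14, Msr1, Mrc1, Mertk, Cd163 and Marco, which were found by gene symbol among the 24346 genes of the deposited data. RNA-sequencing had been performed on tumor endothelial cells (ECs) of WT mice (n = 3 samples) and Apelin-KO mice (n = 3 samples), all of strain C57BL/6 and 8 to 10 weeks old when used, after subcutaneous inoculation with MC38 cells, a murine colon carcinoma line. Apelin-KO mice carry a knockout of the peptide ligand Apelin, whose allele is not described in the sources used here, and the labels of all 6 samples name saline. Tumors were taken at day 19, digested with enzyme and sorted for cells with CD31 and without CD45. CD31 is a surface protein of ECs and CD45 is a surface protein of leukocytes, so the gate was set to leave macrophages out. Neither the number of mice behind a library nor the purity of the sort is given in the sources used here, and p-values measure the spread between these samples.

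Macrophages depend on the receptor CSF1R, which binds CSF1 and IL-34 and keeps the cells alive, and on the transcription factor PU.1, encoded by Spi1, which sets the myeloid program. They clear dying cells, modified lipoproteins and bacteria through scavenger and pattern recognition receptors, and they break down what they take up in lysosomes. In tumors, macrophages often gather around vessels, and some of these genes, such as Mrc1, are also known from lymphatic and sinusoidal ECs.

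Expression is given as FPKM (fragments mapped to a gene, scaled to transcript length and to sequencing depth). Differences are given on the scale log2(FPKM + 1), WT minus Apelin-KO, with the standard error (SE) and the p-value from limma, a linear model with a variance pooled over genes. The test was run on the 10964 genes whose average over the 6 samples was 1 FPKM or more, and p-values were adjusted over all of these by the Benjamini-Hochberg method. Of the 10 genes, 8 were tested, and Cd163 and Marco fell below the limit. With 3 samples per genotype, the p-value of an exact permutation test cannot go below 0.1.

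Read numbers were estimated from the steps of low FPKM, at between 8920000 and 10170000 reads per sample. Apln, which encodes Apelin, averaged 457 ± 40.7 FPKM in WT against 17.3 ± 7.2 FPKM in Apelin-KO samples (SD, n = 3 each). The EC marker genes of a fixed list were present in all samples, and Pecam1, which encodes CD31, lay between 553 and 846 FPKM. Ptprc, which encodes CD45, was 3.13, 4.84 and 1.26 FPKM in WT 1, 2 and 3, and 0.043, 1.70 and 0.740 FPKM in Apelin-KO 1, 2 and 3. The Ptprc level in Apelin-KO 1 was close to 0, and the groups overlapped.

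To show what lies next to these genes, the 250 bases before the RefSeq start site are printed for Lyz2 and Cd68, which had the highest levels among the genes with a promoter entry, for Mrc1, which had the most matches to the motif searched, and for Marco, which was listed at 0. The build is GRCm38.p6, and the letters run 5′ to 3′ on the strand of the gene. Capitals mark GAGGAA, one form of the core of PU.1 sites, or its reverse complement TTCCTC. Other forms were not searched, so a window without capitals may still hold such a site. Lyz2 is on the minus strand at chr10:117282273-117282522, Cd68 on the minus strand at chr11:69666171-69666420, Mrc1 on the plus strand at chr2:14229164-14229413 and Marco on the minus strand at chr1:120505025-120505274.
Lyz2: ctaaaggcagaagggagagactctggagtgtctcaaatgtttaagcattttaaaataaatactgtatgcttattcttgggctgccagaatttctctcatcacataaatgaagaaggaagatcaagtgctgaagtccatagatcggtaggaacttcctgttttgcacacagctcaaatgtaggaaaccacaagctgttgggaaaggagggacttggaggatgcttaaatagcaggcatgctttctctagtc
Cd68: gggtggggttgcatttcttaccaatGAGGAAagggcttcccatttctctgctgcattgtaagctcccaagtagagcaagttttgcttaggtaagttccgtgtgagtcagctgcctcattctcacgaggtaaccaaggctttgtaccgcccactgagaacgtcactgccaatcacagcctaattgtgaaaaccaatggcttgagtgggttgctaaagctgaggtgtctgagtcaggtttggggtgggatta
Mrc1: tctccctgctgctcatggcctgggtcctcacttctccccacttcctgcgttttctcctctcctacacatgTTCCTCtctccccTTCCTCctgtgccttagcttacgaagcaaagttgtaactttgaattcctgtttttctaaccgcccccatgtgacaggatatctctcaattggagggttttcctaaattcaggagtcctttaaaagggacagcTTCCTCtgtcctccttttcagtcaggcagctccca
Marco: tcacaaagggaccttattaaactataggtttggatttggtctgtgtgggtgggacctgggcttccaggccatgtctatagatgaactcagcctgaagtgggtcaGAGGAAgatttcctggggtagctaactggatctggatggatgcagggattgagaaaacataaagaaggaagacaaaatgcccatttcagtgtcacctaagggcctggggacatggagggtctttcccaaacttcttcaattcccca

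Promoter sequences were matched for 6 of the 10 genes, the other two of these being Mertk and Cd163. GAGGAA was searched on both strands and occurs in 23.3% of the 32851 RefSeq promoters of this length. It was found 3 times before Mrc1, at positions -180, -167 and -35 from the start site, once before Cd68 at -225 and once before Marco at -146, and it was not in the windows of Lyz2, Mertk and Cd163. TGANTCA, a core of AP-1 sites, was found at -149 and -24 before Cd68 and in none of the other 5 windows, against 6.75% of all promoters. TATAAA was in none of the 6 windows, against 12.4% of all promoters. These motifs do not overlap one another in the printed windows. A match is a run of letters and not a measured binding site.

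Csf1r and Spi1, the receptor and the transcription factor at the root of the macrophage lineage, were both at a higher mean level in WT ECs. Csf1r is a gene of chromosome 18 (GRCm38, 61100598 to 61132149). Its level was 21.5, 34.2 and 9.19 FPKM in WT 1, 2 and 3, and 3.50, 12.7 and 8.63 FPKM in Apelin-KO 1, 2 and 3. WT 1 and WT 2 lay above every Apelin-KO sample, WT 3 lay between Apelin-KO 2 and Apelin-KO 3, and the groups overlapped. On average Csf1r was at 21.6 ± 12.5 FPKM in WT against 8.27 ± 4.60 FPKM in Apelin-KO samples (SD, n = 3 each), a ratio of 2.61. The log2 difference of Csf1r was 1.25 (SE 0.54, unadjusted p = 0.0525, adjusted p = 0.525 from limma). The gene overlaps Hmgxb3 on the opposite strand, and whether reads were assigned by strand is not stated. In such bulk samples, fewer cells of a type and less RNA per cell cannot be told apart.

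Spi1, on chromosome 2 from 91082390 to 91115756, was 5.22, 6.38 and 2.12 FPKM in WT 1, 2 and 3, and 1.79, 1.12 and 1.40 FPKM in Apelin-KO 1, 2 and 3. All WT samples lay above all Apelin-KO samples, with WT 3 close to Apelin-KO 1. Its mean level was 3.18 times higher in WT ECs, and the Apelin-KO samples were within 1.60 times of one another. The log2 difference of Spi1 was 1.11 (SE 0.31, unadjusted p = 0.00908, adjusted p = 0.501 from limma), and the exact permutation test gave p = 0.1. The Spi1 level in WT 3 stands for an estimated 35.5 reads and that in Apelin-KO 1 for 30.6 reads, so that the gap between the groups rests on few reads.

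**Figure D1:**
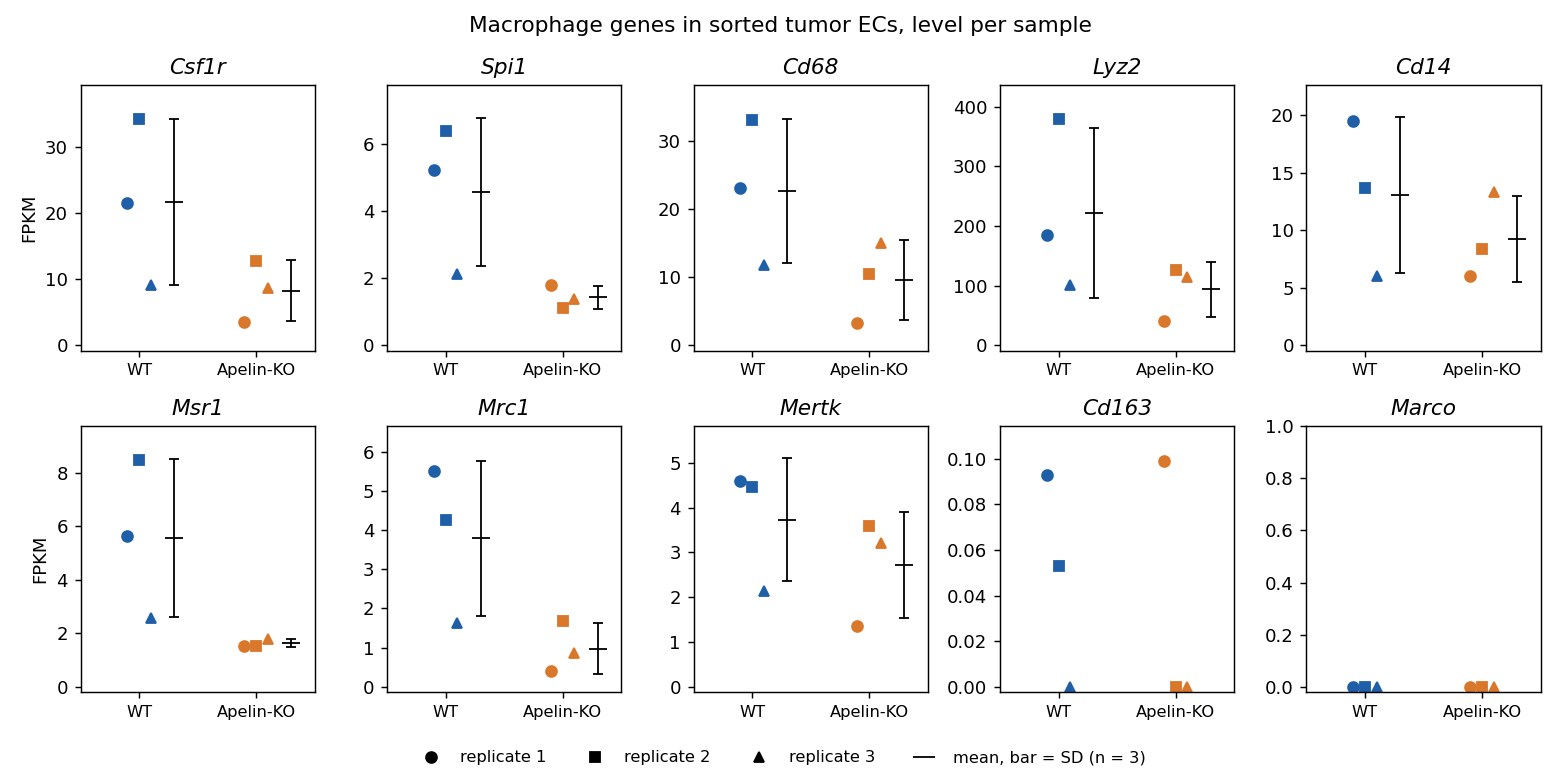
Level in FPKM of the 10 macrophage genes in each sample, with WT in blue and Apelin-KO in orange, and with the mean and the SD (n = 3) for the 8 genes that were tested. WT 1 and WT 2 are the highest samples for each of these 8 genes, the groups separate for Spi1 and Msr1, and Cd163 and Marco lie at or near 0.

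Cd68 and Lyz2 encode abundant macrophage proteins, a lysosomal glycoprotein and the secreted enzyme lysozyme M that cleaves bacterial cell walls. Cd68, on chromosome 11 from 69664213 to 69666153, was 23.1, 33.0 and 11.8 FPKM in WT 1, 2 and 3, and 3.32, 10.5 and 15.0 FPKM in Apelin-KO 1, 2 and 3. Apelin-KO 3 lay above WT 3, and the groups overlapped. For Cd68 the log2 difference was 1.24 (SE 0.54, unadjusted p = 0.0542, adjusted p = 0.525 from limma).

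Lyz2 had the highest level of the 10 genes in every sample and lay above 90.9% to 99.4% of all listed genes. On chromosome 10 from 117277331 to 117282321, it was 185, 380 and 101 FPKM in WT 1, 2 and 3, and 40.9, 127 and 114 FPKM in Apelin-KO 1, 2 and 3. WT 3 lay below Apelin-KO 2 and Apelin-KO 3, although the mean level was 2.37 times higher in WT ECs. For Lyz2 the log2 difference was 1.19 (SE 0.57, unadjusted p = 0.0770, adjusted p = 0.564 from limma). Of the 75-base windows of the Lyz2 transcript, 5.96% also occur in its neighbour Lyz1, which was at most 0.522 FPKM, so that the split of reads between both lysozyme genes is uncertain for that share. None of the windows of the other 9 genes occur in an annotated transcript of another gene. Lyz2 made up between 68.5% and 78.4% of the summed FPKM of the 10 genes, a sum of 270, 485 and 137 for WT 1, 2 and 3, against 58.9, 166 and 158 for Apelin-KO 1, 2 and 3.

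Cd14, the co-receptor that passes bacterial lipopolysaccharide to TLR4, had a log2 difference that was smaller than its SE. The gene is on chromosome 18 from 36725067 to 36726798. Its level was 19.5, 13.7 and 6.04 FPKM in WT 1, 2 and 3, and 5.99, 8.33 and 13.3 FPKM in Apelin-KO 1, 2 and 3. The lowest WT sample was next to the lowest Apelin-KO sample, and Apelin-KO 3 was next to WT 2. The log2 difference of Cd14 was 0.40 (SE 0.42, unadjusted p = 0.379, adjusted p = 0.792 from limma).

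Msr1, Marco, Cd163 and Mrc1 are scavenger receptors. Msr1 and Marco are the class A receptors for modified lipoproteins and bacteria, Cd163 takes up the complex of haptoglobin and hemoglobin, and Mrc1 is the mannose receptor. Msr1, on chromosome 8 from 39581685 to 39642673, was 5.62, 8.46 and 2.57 FPKM in WT 1, 2 and 3, and 1.53, 1.54 and 1.79 FPKM in Apelin-KO 1, 2 and 3. The groups did not overlap, and the Apelin-KO samples lay within 1.17 times of each other while the WT samples spread over 3.29 times. On average Msr1 was at 5.55 ± 2.95 FPKM in WT against 1.62 ± 0.150 FPKM in Apelin-KO samples (SD, n = 3 each), a ratio of 3.42. The log2 difference of Msr1 was 1.21 (SE 0.32, unadjusted p = 0.00714, adjusted p = 0.501 from limma), with an exact permutation p of 0.1.

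Mrc1, on chromosome 2 from 14229392 to 14332057, had the largest ratio of mean levels, 3.90. It was 5.51, 4.25 and 1.63 FPKM in WT 1, 2 and 3, and 0.394, 1.67 and 0.864 FPKM in Apelin-KO 1, 2 and 3. WT 3 and Apelin-KO 2 were nearly at the same level, and by this pair alone the groups overlapped. For Mrc1 the log2 difference was 1.23 (SE 0.37, unadjusted p = 0.0126, adjusted p = 0.501 from limma). With a mean of 0.975 FPKM in Apelin-KO ECs, Mrc1 passed the limit of 1 FPKM through the WT samples. With each gene's own variance in place of the pooled one, the unadjusted p-value of Mrc1 was 0.0614.

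Cd163, on chromosome 6 from 124304656 to 124330527, was 0.093, 0.053 and 0 FPKM in WT 1, 2 and 3, and 0.099, 0 and 0 FPKM in Apelin-KO 1, 2 and 3. By the estimated depth, WT 1 held 4.0 reads of Cd163, WT 2 held 2.0 and Apelin-KO 1 held 3.9, and a difference was not detectable at this depth. Marco, on chromosome 1 from 120474538 to 120505024, was listed at 0 in all 6 samples. An exact 0 in these files is not always an absence of RNA, since Gapdh, a gene that every cell uses, is listed at 0 in 2 samples and at no more than 0.433 FPKM in the others. Gapdh was chosen after its values were seen.

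Mertk encodes the receptor tyrosine kinase with which macrophages bind and engulf dying cells. On chromosome 2 from 128698956 to 128802894, it was 4.59, 4.45 and 2.14 FPKM in WT 1, 2 and 3, and 1.36, 3.59 and 3.20 FPKM in Apelin-KO 1, 2 and 3. Apelin-KO 2 and 3 lay between WT 2 and WT 3, and the groups overlapped. For Mertk the log2 difference was 0.36 (SE 0.32, unadjusted p = 0.298, adjusted p = 0.748 from limma). The gene overlaps Gm14011, annotated as antisense, and the strand setting is not stated.

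**Figure D2:**
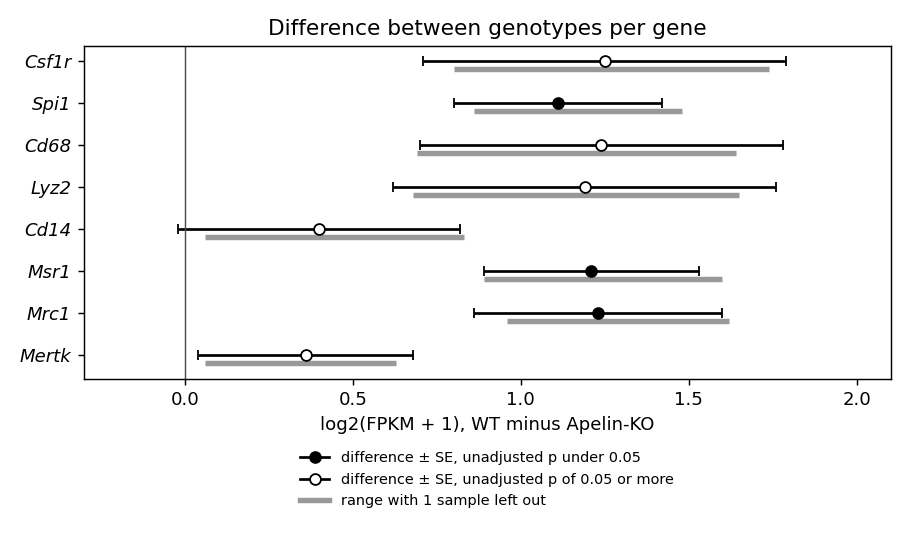
Difference in log2(FPKM + 1) between WT and Apelin-KO ECs for the 8 tested genes, with the SE, and in grey the range of the difference when 1 of the 6 samples is left out. All 8 differences and grey ranges lie above 0, though the SE of Cd14 reaches below it, near 1.2 for 6 genes and near 0.4 for Cd14 and Mertk.

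None of the 8 tested genes had an adjusted p-value under 0.05, which was reached by 0.00912% of all tested genes, Apln alone. An unadjusted p-value under 0.05 was found for 3 of the 8, Msr1, Spi1 and Mrc1, against 9.42% of all tested genes, and against 5.17% with the higher level in WT. The groups did not overlap, with the higher level in WT, for Msr1 and Spi1, against 6.61% of all tested genes. A log2 difference above 1 was measured for 6 of the 8, all but Cd14 and Mertk, against 1.27% of all tested genes. All 8 had the higher mean in WT ECs, against 47.5% of all tested genes, and the median log2 difference was 1.20, against -0.01 over all tested genes. The choice of the genes was made with earlier results of these data known, so these counts are a description. Without WT 3, an unadjusted p-value under 0.05 was found for 7 of the genes, all but Mertk, against 11.2% of genes tested in that fit, and the median log2 difference was 1.61. Without Apelin-KO 1, the median log2 difference was 0.75, and the differences of Cd68, Lyz2, Csf1r, Cd14 and Mertk were 0.69, 0.68, 0.80, 0.15 and 0.06. In that fit Msr1, Spi1 and Mrc1 were again the 3 with an unadjusted p-value under 0.05, against 8.95% of all genes.

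The samples fell in nearly the same order for each gene. WT 1 and WT 2 were the highest samples for 8 of 8 genes, WT 2 being the highest for 5 and WT 1 for 3. WT 3 was the lowest of the WT samples for all 8, and it lay above every Apelin-KO sample only for Msr1 and Spi1. Apelin-KO 1 was the lowest sample of all for 7 of the 8, the exception being Spi1. This order was not particular to these genes. Named after their values were seen, the pan-leukocyte markers Ptprc, Cd52 and Cd53 also had WT 1 and WT 2 highest and Apelin-KO 1 lowest. So had the fibroblast markers Pdgfra, Col1a1 and Col3a1, though some other markers of both lists had not. The share of all tested genes with this order was not counted. The highest over the lowest level was between 2.15 for Mertk and 3.75 for Lyz2 within WT samples, and between 1.17 for Msr1 and 4.54 for Cd68 within Apelin-KO samples. Over the 6 samples, the Pearson correlation between the tested genes lay between 0.55 and 0.98 over 28 pairs, with a median of 0.84. The highest were those of Lyz2 with Csf1r and of Spi1 with Msr1, both 0.98, and the lowest was that of Spi1 with Mertk. These correlations rest on 6 samples of both genotypes, both genes of a pair were measured in the same library, and they are given as a description.

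To compare the genes within each sample, the FPKM of each gene were divided by those of Csf1r. Lyz2 followed Csf1r most closely. Its ratio to Csf1r was 8.62, 11.1 and 11.0 for WT 1, 2 and 3, against 11.7, 9.99 and 13.2 for Apelin-KO 1, 2 and 3. The ratio thus ranged over 1.53 times while the level of Csf1r itself ranged over 9.76 times.

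Mertk was the gene whose ratio to Csf1r separated the groups. The ratio was 0.214, 0.130 and 0.233 for WT 1, 2 and 3, against 0.389, 0.283 and 0.371 for Apelin-KO 1, 2 and 3, and every Apelin-KO sample lay above every WT sample. Of all tested genes, 5.33% had a ratio to Csf1r that separated the groups, 5.19% with the lower ratio in WT and 0.137% with the higher. On the log2(FPKM + 1) scale, the difference of Mertk relative to Csf1r was -0.90, WT minus Apelin-KO (exact permutation test, p = 0.1, adjusted p = 0.7 over the 7 genes compared with Csf1r). For Cd14 it was -0.86 (exact permutation p = 0.3, adjusted p = 1.0), with ratios between 0.400 and 0.910 in WT samples and between 0.657 and 1.71 in Apelin-KO samples, which overlapped. For the remaining 5 genes it was between -0.14 and -0.01, a scale that understates differences of low genes such as Mrc1. The FPKM ratio of Mrc1 to Csf1r was 0.186 ± 0.0667 in WT against 0.115 ± 0.0158 in Apelin-KO samples (SD, n = 3 each), and the groups overlapped, as WT 2 (0.125) lay below Apelin-KO 2 (0.132). The ratio of Msr1 to Csf1r was between 0.248 and 0.280 in WT samples and between 0.122 and 0.437 in Apelin-KO samples, and that of Spi1 was between 0.187 and 0.243 in WT samples and between 0.0883 and 0.512 in Apelin-KO samples. For both genes, Apelin-KO 1 had the highest ratio and Apelin-KO 2 the lowest. Relative to the mean log2 level of 9 pan-leukocyte markers, the differences lay between -0.30 for Mertk and 0.60 for Csf1r. This mean includes markers with log2 differences near 0, Lcp1 (-0.18), Srgn (-0.12) and Arhgdib (0.11), while those of Ptprc (1.16), Cd52 (1.40), Cd53 (1.32) and Rac2 (1.14) were close to that of Csf1r itself (1.25), so the differences depend on which markers form the base. For Mrc1 this difference was 0.58 and for Msr1 0.56 (exact permutation p = 0.1 for both), and over the 8 genes the adjusted p-values lay between 0.4 and 0.5.

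**Figure D3:**
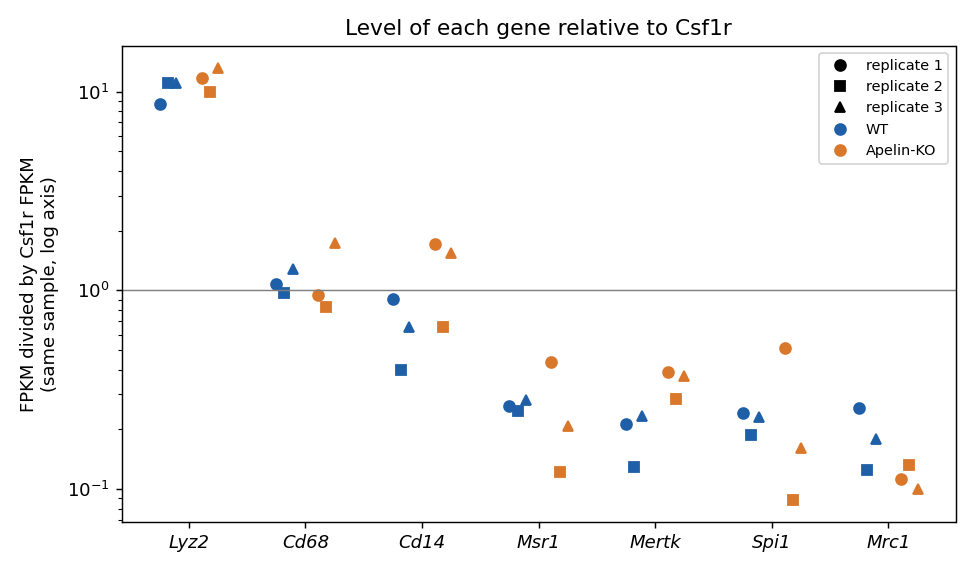
FPKM of 7 macrophage genes divided by the FPKM of Csf1r in the same sample, on a log axis, with WT in blue and Apelin-KO in orange. Lyz2 stays between 8.62 and 13.2 in all samples, and the Mertk ratios of the 3 Apelin-KO samples lie above those of the 3 WT samples.

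Around the 10 genes, 7 lists of genes of the same pathways were examined, of which 94 genes were tested. None of these had an adjusted p-value under 0.05. An unadjusted p-value under 0.05 was found for 31 of them, or 33.0%, with 27 higher and 4 lower in WT ECs, against 9.42% of all tested genes. By direction, the share of all tested genes was 5.17% higher and 4.25% lower in WT. The counts of single lists below stand against these shares. The count over the 94 genes was 11 without WT 1, where 6.19% of all genes had such a p-value, 9 without WT 2 (4.91% of all genes), and 17 without Apelin-KO 3 (6.81% of all genes). Without Apelin-KO 1 it was 10, a share near the 8.95% of all genes in that fit.

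Among CSF1 receptor ligands, adaptors and macrophage transcription factors, 19 of 22 genes were tested, and 8 had an unadjusted p-value under 0.05, all higher in WT ECs, with a median log2 difference of 0.34 over the list. Of these 8, Csf2ra passed the limit of 1 FPKM through the WT samples, its mean in Apelin-KO samples being 0.934 FPKM. Trem2, a lipid receptor, was 7.54, 9.50 and 3.68 FPKM in WT 1, 2 and 3, and 1.68, 3.29 and 2.62 FPKM in Apelin-KO 1, 2 and 3, and its groups did not overlap. The log2 differences of Tyrobp, the signalling adaptor of TREM2, of Trem2 itself and of Ptpn6, the phosphatase SHP-1, were 1.12 (SE 0.37), 1.11 (SE 0.32) and 1.05 (SE 0.38). The ligands were named after their values were seen. Csf1 averaged 11.7 ± 2.79 FPKM in WT against 10.4 ± 3.11 FPKM in Apelin-KO samples (SD, n = 3 each), and its log2 difference was 0.18 (SE 0.23). Il34 averaged 5.04 ± 1.79 FPKM against 2.62 ± 0.666 FPKM (SD, n = 3 each), with Apelin-KO 1 just above WT 3 and a log2 difference of 0.71 (SE 0.24, unadjusted p = 0.0205, adjusted p = 0.503 from limma).

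In the CD14 and Toll-like receptor pathway, 12 of 17 genes were tested and the median log2 difference was -0.03. Tlr2, a receptor for bacterial lipopeptides, was the only one with an unadjusted p-value under 0.05. This count is near the share of 9.42% among all tested genes. Tlr2 was 13.5, 17.8 and 8.52 FPKM in WT 1, 2 and 3, and 5.69, 7.09 and 6.59 FPKM in Apelin-KO 1, 2 and 3. The groups did not overlap, and the log2 difference was 0.88 (SE 0.24, adjusted p = 0.501 from limma).

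Other scavenger and pattern recognition receptors went in both directions. Of 13 genes tested among 21, 3 had an unadjusted p-value under 0.05 with the higher level in WT ECs and 2 with the lower level. Cxcl16, a membrane chemokine that binds oxidized lipoprotein, Scara3 and Scara5, a ferritin receptor, had log2 differences of 0.99 (SE 0.38), 0.96 (SE 0.37) and 0.71 (SE 0.27). Scarb1, the receptor for high-density lipoprotein, was 202, 215 and 262 FPKM in WT 1, 2 and 3, and 314, 267 and 299 FPKM in Apelin-KO 1, 2 and 3. Every Apelin-KO sample lay above every WT sample, with a log2 difference of -0.38 (SE 0.13, adjusted p = 0.507 from limma). Of all tested genes, 7.77% separated the groups in this direction. The other with the lower level in WT was Scarf1, a scavenger receptor of ECs that was named after its values were seen, with a log2 difference of -0.28 (SE 0.11). Scarb1 was thus at a level above that of Csf1r in each sample, with the opposite direction.

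Among MERTK ligands, relatives and genes of cell clearance, 10 of 14 were tested, with a median log2 difference of -0.02. Axl, the receptor kinase related to MERTK, was 20.9, 24.2 and 9.83 FPKM in WT 1, 2 and 3, and 6.04, 10.3 and 9.07 FPKM in Apelin-KO 1, 2 and 3, and Apelin-KO 2 lay above WT 3. Its log2 difference was 0.97 (SE 0.34), and that of Itgb5, an integrin subunit, was 0.82 (SE 0.31). Gas6, the ligand of both kinases, was in the opposite direction with -0.48 (SE 0.19), as was Abca1, the cholesterol exporter, with -0.37 (SE 0.15). These 4 genes had unadjusted p-values under 0.05 and adjusted p-values of at least 0.507. Without WT 1 the difference of Gas6 was -0.32, and without Apelin-KO 3 that of Abca1 was -0.21. Of 15 alternative limma fits, the unadjusted p-value was under 0.05 in 7 for Gas6, in 8 for Abca1, and in 11 each for Axl and Itgb5.

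Of the genes that handle hemoglobin and heme, 8 of 10 were tested and 2 had an unadjusted p-value under 0.05, against 9.42% of all tested genes. Slc11a1, a metal transporter of phagosomes, had a log2 difference of 1.19 (SE 0.41), and Blvrb, a biliverdin reductase, one of 0.56 (SE 0.13) with groups that did not overlap. Of lysozymes and lysosomal proteins, 14 of 15 were tested, with a median log2 difference of 0.16. Ctss, the cathepsin of antigen-presenting cells, was 153, 247 and 59.2 FPKM in WT 1, 2 and 3, and 22.2, 72.1 and 50.5 FPKM in Apelin-KO 1, 2 and 3, with a log2 difference of 1.57 (SE 0.59) and overlapping groups. Mpeg1, which encodes perforin-2, had a log2 difference of 1.22 (SE 0.36) and groups that did not overlap. Ctss and Mpeg1 were the only 2 of this list with an unadjusted p-value under 0.05, against 9.42% of all tested genes.

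Of other macrophage markers, 18 of 22 were tested, 9 had an unadjusted p-value under 0.05, all higher in WT ECs, and the median log2 difference was 1.15. Of the 9, Fcgr1 and Siglec1 had a mean below 1 FPKM in Apelin-KO samples and passed the limit through the WT samples, so this count is a description. Ly6c2, a monocyte surface protein, had the largest log2 difference, 1.74 (SE 0.55), with 7.92, 10.4 and 2.38 FPKM in WT 1, 2 and 3, and 0.179, 2.78 and 1.06 FPKM in Apelin-KO 1, 2 and 3. Apelin-KO 2 lay above WT 3 here as well. Apoe, an apolipoprotein, Itgam, an integrin of myeloid cells, and C1qa, a complement subunit, had log2 differences of 1.47 (SE 0.53), 1.38 (SE 0.53) and 1.37 (SE 0.56), each with overlapping groups. Without WT 2 these were 1.17, 0.97 and 0.86. The unadjusted p-value from limma was under 0.05 in 11 of 15 alternative fits for Apoe, 6 of 14 for Itgam and 6 of 15 for C1qa.

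**Figure D4:**
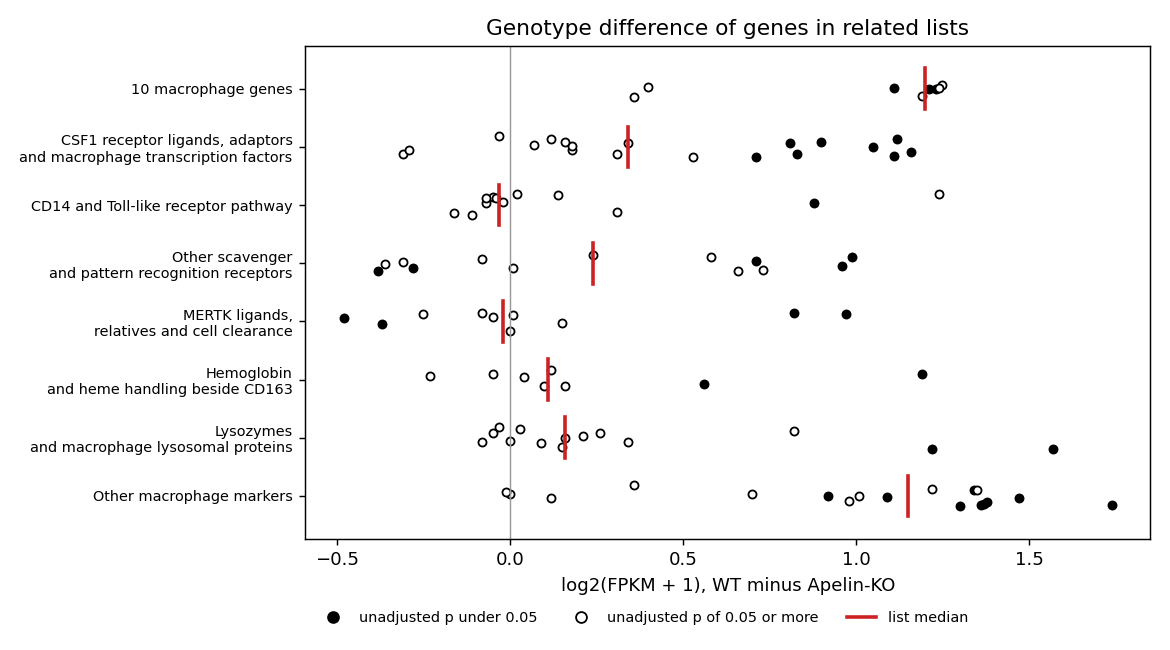
Difference in log2(FPKM + 1), WT minus Apelin-KO, for each tested gene of the 10 macrophage genes and of the 7 related lists, filled where the unadjusted p-value is under 0.05, with the median of each list in red. The medians are 1.20 for the macrophage genes and 1.15 for other macrophage markers, and between -0.03 and 0.34 for the remaining lists.

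Markers of other cell types were examined beside the macrophage genes, and their counts stand against 47.5% of all tested genes with the higher level in WT, 5.17% with an unadjusted p-value under 0.05 and higher in WT, and 4.25% with such a p-value and lower in WT. The single markers given with values below, and Csf2ra, Fcgr1 and Siglec1 above, were named after their values were seen. Of 9 pan-leukocyte markers, 7 were higher in WT ECs and 4 had an unadjusted p-value under 0.05, and their summed level was between 482 and 618 FPKM in WT samples and between 481 and 547 FPKM in Apelin-KO samples. This sum was mostly Srgn and Lcp1, with mean levels of 261 and 112 FPKM in WT and of 284 and 127 FPKM in Apelin-KO samples, and it does not show equal leukocyte content. The 4 markers with an unadjusted p-value under 0.05 were Ptprc, Cd52, Cd53 and Rac2, whose mean levels were 3.73, 2.85, 3.27 and 4.22 times higher in WT samples. Ptprc and Rac2, with means of 0.826 and 0.701 FPKM in Apelin-KO samples, passed the limit of 1 FPKM through the WT samples. Of 8 fibroblast markers, 5 were tested and all 5 were higher in WT ECs, 4 with an unadjusted p-value under 0.05. Among the untested ones, Lum and Dpt had the higher mean in WT. Fap went the other way, with means of 0.0847 FPKM in WT and 0.411 FPKM in Apelin-KO samples and no overlap. Mostly Col1a1 and Col3a1, the 8 markers summed to 322, 333 and 192 FPKM in WT 1, 2 and 3. In Apelin-KO 1, 2 and 3 they summed to 125, 168 and 198 FPKM. WT 1 and WT 2 had the highest sums, as for all 8 tested macrophage genes. Apelin-KO 1 had the lowest, as for 7 of these genes. The full order of the 6 samples was that of Cd68 and of none of the other 7 tested genes. All 15 endothelial markers were lower in WT ECs, 5 with an unadjusted p-value under 0.05, with sums between 4340 and 5180 FPKM in WT samples and between 5370 and 5660 FPKM in Apelin-KO samples. Pericyte markers summed to between 136 and 178 FPKM in WT samples and to between 185 and 211 FPKM in Apelin-KO samples, mostly Kcnj8 and Abcc9. Of the 6 tested, only Rgs5 had an unadjusted p-value under 0.05, with a mean of 3.44 FPKM in WT and 7.78 FPKM in Apelin-KO samples and no overlap (unadjusted p = 5.86e-05, adjusted p = 0.214 from limma). Tumor epithelial markers summed to at most 21.0 FPKM in Apelin-KO 3, of which 20.6 FPKM was Krt20. Epcam, Krt8, Krt18, Krt19 and Cldn4 were listed at 0 in some samples. The part of these cell types in the differences of the macrophage genes was not tested.

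Markers of other leukocytes were mostly low. Summed over the neutrophil list, levels were between 1.06 and 3.36 FPKM in the 6 samples, and Cxcr2, Camp and Ngp were listed at 0 in all of them. B cell markers summed to at most 0.813 FPKM and mast cell markers to at most 1.36 FPKM, with Mcpt4 and Ms4a2 at 0. The T and NK list summed to between 11.9 and 14.9 FPKM in WT samples and to between 8.53 and 10.8 FPKM in Apelin-KO samples, with 2 of 10 genes tested, and was mostly Lck. The other gene tested, Nkg7, a protein of cytotoxic granules, averaged 3.60 FPKM in WT and 0.994 FPKM in Apelin-KO samples, with groups that did not overlap and a log2 difference of 1.21 (SE 0.29, unadjusted p = 0.00444, adjusted p = 0.501 from limma). It too passed the limit through the WT samples. The dendritic list summed to at most 25.5 FPKM and was mostly Zbtb46, with 2 of 7 genes tested and Siglech at 0. Lymphatic and sinusoidal endothelial markers, cells in which Mrc1 can be found, summed to 363, 205 and 237 FPKM in WT 1, 2 and 3, and to 218, 306 and 269 FPKM in Apelin-KO 1, 2 and 3. The groups overlapped for this sum, which was mostly Flt4, Stab1 and Lyve1. WT 1, the highest sample for Mrc1, had the highest sum, and WT 2, the second highest for Mrc1, had the lowest. In Apelin-KO 2, Ccl21a gave 39.1 FPKM of the sum, against at most 0.484 FPKM in the other samples. The part of these cells in the Mrc1 difference was not tested.

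The genes most like the macrophage genes were found by the Pearson correlation of log2(FPKM + 1) over the 6 samples with the mean standardized level of the 8 tested genes. The first 10 were Dtx4, Pld4, Dnajb4, Chpf, Dclk1, Tmem119, Scara5, Axl, Lrp1 and Scd1, with correlations between 0.990 and 0.998. Pld4 was 13.3, 18.2 and 4.23 FPKM in WT 1, 2 and 3, and 1.68, 4.54 and 4.16 FPKM in Apelin-KO 1, 2 and 3. All 10 were highest in WT 1 and WT 2 and lowest in Apelin-KO 1. The mean standardized level by which they were chosen has this order too, so the order follows from the choice. For single genes, the closest were Ctss for Csf1r (0.997), Plekha2 for Cd68 (0.994), Sec22c for Cd14 (0.985), Dennd1b for Lyz2 (0.997), Ltbp1 for Mrc1 (0.998), Apobr for Mertk (0.996), Acat2 for Msr1 (0.993) and Yrdc for Spi1 (0.986). With 6 samples and 10964 genes to choose from, such values are a description of this ranking.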

How the data were processed

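RNA-sequencing of sorted tumor ECs in 3 WT and 3 Apelin-KO samples was used. The authors made stranded mRNA libraries, sequenced 75-base single-end reads, aligned these to mm10, and deposited FPKM as 1 value per gene symbol. The submitters' processing notes list TopHat2 2.1.1, Bowtie2 2.2.4, SAMtools 1.0 and Cufflinks 2.2.1. The methods of the paper give other, lower versions of TopHat, Bowtie2 and SAMtools and the same version of Cufflinks. The annotation and the strand setting are not given in the sources used here. No counts were used, and depth was estimated from the steps between low values in 3742 genes that have 1 GENCODE transcript, longer than 700 bases, assuming 200-base fragments.

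FPKM were compared on log2(FPKM + 1) with limma 3.58.1 in R 4.3.3, a two-sided moderated test without block, tested on simulated data. Groups come from the sample titles. Python 3.11.15 was used for annotation and plots. The 10 genes and the lists were chosen with earlier results of these data known. Of each list, the genes with an unadjusted p-value under 0.05 were named, at most the 4 with the largest difference, and some items under this rule are not reported here. Alternatives changed the pseudocount, filter, scaling, variance, block and samples.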

Additional observations from a re-analysis of the deposited data

How the results depend on the processing

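All 8 tested genes kept the higher level in WT ECs in each of the 15 alternative fits in which they were tested, and none reached an adjusted p-value under 0.05 in limma. With 1 sample left out in turn, their median log2 difference was between 0.75 and 1.61, the number with an unadjusted p-value under 0.05 between 3 and 7, that of list genes between 9 and 45, that of all genes between 536 and 1228, and the count by adjusted p-value between 0 and 3. With a mean of at least 5 FPKM, where 4 of the 10 genes are tested, 1 of them (9.23% of all genes), 17 list genes and 2 genes by adjusted p-value passed. With an intensity trend, 5 of the 8 tested genes (1098 of 10964 genes in all) and 2 genes by adjusted p-value passed, and 2 also with a pseudocount of 0.01 and without a filter. With each gene's own variance, Msr1 and Spi1 but no longer Mrc1, 9 list genes, 783 genes (7.14%) by unadjusted and 0 by adjusted p-value passed. Depth limits Cd163, at no more than an estimated 4.0 reads.

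With the replicate number as a block, 5 of the 8 tested genes had an unadjusted p-value under 0.05 (Csf1r, Lyz2, Mrc1, Msr1 and Spi1), against 8.14% of all genes. Deviations of samples with the same number correlated at -0.14, 0.21 and -0.02, and not every sample correlated best with its own number, so the numbers were not taken to pair the samples.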
